A study of Homo sapiens with 12 samples.

Results

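The replication-dependent histone genes encode the core histones H2A, H2B, H3 and H4 and the linker histone H1 that package newly made DNA. They were taken by symbol, as H1-1 to H1-6 and the genes named H2AC, H2BC, H3C or H4C with a number, when every array of 1 or more groups gave a probe a detection p under 0.05. The array held 69 such genes on 78 probes, and 44 genes on 48 probes passed, of 10208 genes that passed in all. By type these were 12 H2A genes of 17, 12 H2B of 18, 9 H3 of 13, 10 H4 of 15 and 1 H1 gene of 6. Of the 44, 37 were detected on all 12 arrays. The other 7 (H2AC4, H2AC13, H2BC18, H3C12, H3C15, H4C1 and H4C9) passed through some of the groups alone, so counts are given first for the 37.

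K562 is a human cell line from chronic myeloid leukaemia in which the BCR-ABL1 fusion kinase drives growth, and dasatinib blocks the kinases of the ABL and SRC families. The comparisons concern transcript levels after short and long inhibition of BCR-ABL. All groups were in medium with 0.1% serum after growth in 10% serum. They were a vehicle group with 0.2% DMSO for 24 h and groups with 100 nM dasatinib for 4 h, 8 h and 24 h, with 3 arrays each. The vehicle was sampled at 24 h alone, so the earlier dasatinib groups differ from it in hours of low serum as well as in drug, which cannot be told apart. Whether replicate arrays stem from separate cultures is not in the labels, and p-values therefore cover the spread among these samples only.

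Replication-dependent histone genes lie in clusters, the largest on chromosome 6, and are transcribed mainly as cells enter and pass through S phase. NPAT, which cyclin E with CDK2 phosphorylates, brings their transcription together in nuclear histone locus bodies. Their mRNAs normally end in a stem-loop that SLBP binds, not in a poly(A) tail, and are degraded when DNA synthesis stops. Several of the genes also make polyadenylated transcripts, which have been described in differentiating and non-dividing cells. The labelling kit named in the labels primes on poly(A) tails, so a higher signal can come from more histone mRNA or from a larger polyadenylated share, and these cannot be told apart here. Fewer cells of a kind and less RNA per cell cannot be told apart in such bulk samples either. The coding parts of these genes are very alike, so a probe may read more than 1 member. The probe sequences were not used here.

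The median signal was 134 to 160 per array, and 17175 to 18927 of 47314 probes were detected. The lowest correlation of an array with one of its own group was 0.989 to 0.992 across genes, which are not independent replicates, and the highest with another group was 0.968 to 0.985. The 7 of 8 K562 markers that the array named were detected on every array, among them the erythroid factors GATA1 and KLF1. Their summed signal was 39783 to 43183 on the DMSO arrays, 37497 to 38951 at 4 h, 38282 to 41173 at 8 h and 51283 to 52951 at 24 h, where 4 of the 7 rose (EPOR by 2.36, HBE1 by 2.18, TAL1 by 1.55 and KLF1 by 0.97) and 0 fell. Of all genes that passed, 26.9% were called higher and 27.1% lower at 24 h. The sum was highest at 24 h, and its part in the histone results was not tested. Of 7 markers of other cells 6 were on the array, and CD3E and MPO were undetected on every array. EPCAM, LYZ and PECAM1 passed. Their summed signal was 3469 to 3766 on the DMSO arrays, 4084 to 4780 at 4 h, 3969 to 4618 at 8 h and 2471 to 2833 at 24 h. It was lowest at 24 h, and its part in the histone results was not tested. Levels below are normalized log2 signals, and changes are differences of group means of those levels with the standard error (SE) of the limma fit. A gene is called changed at an adjusted p under 0.05, over all 10208 genes.

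After 24 h of dasatinib most histone genes were higher than in the vehicle. Of the 37 genes detected on all arrays, 31 rose and 2 fell, while 27.0% of all genes detected on all arrays were called higher and 29.2% lower. All 10 H2A genes, all 7 H3 genes, 7 of 11 H2B genes, 6 of 8 H4 genes and the linker gene H1-2 were among those that rose. The median change of the 37 was 0.75, against -0.01 for all genes detected on every array. In 31 of the 37 the lowest 24 h array lay above the highest DMSO array, as it did in 30.7% of such genes overall. A rise of at least 2-fold was called for 12 of them, against 6.61% of all. Over all 44 genes 36 rose and 2 fell, beside 26.9% and 27.1% of all genes that passed. Of these 36, H3C12, H3C15, H4C1 and H4C9 passed through the 24 h group alone, so the filter fixed part of that count. Sizes depended on the background correction, and the median change of the 44 genes, 0.74, was 0.44 without it and 0.33 in the authors' deposited values. The median level of the 37 genes detected on all arrays was 7.97 to 8.09 on the DMSO arrays, 8.27 to 8.40 at 4 h, 8.25 to 8.36 at 8 h and 8.83 to 9.01 at 24 h. The 24 h arrays were thus above all others, and the 4 h and 8 h arrays lay between.

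**Figure D1:**
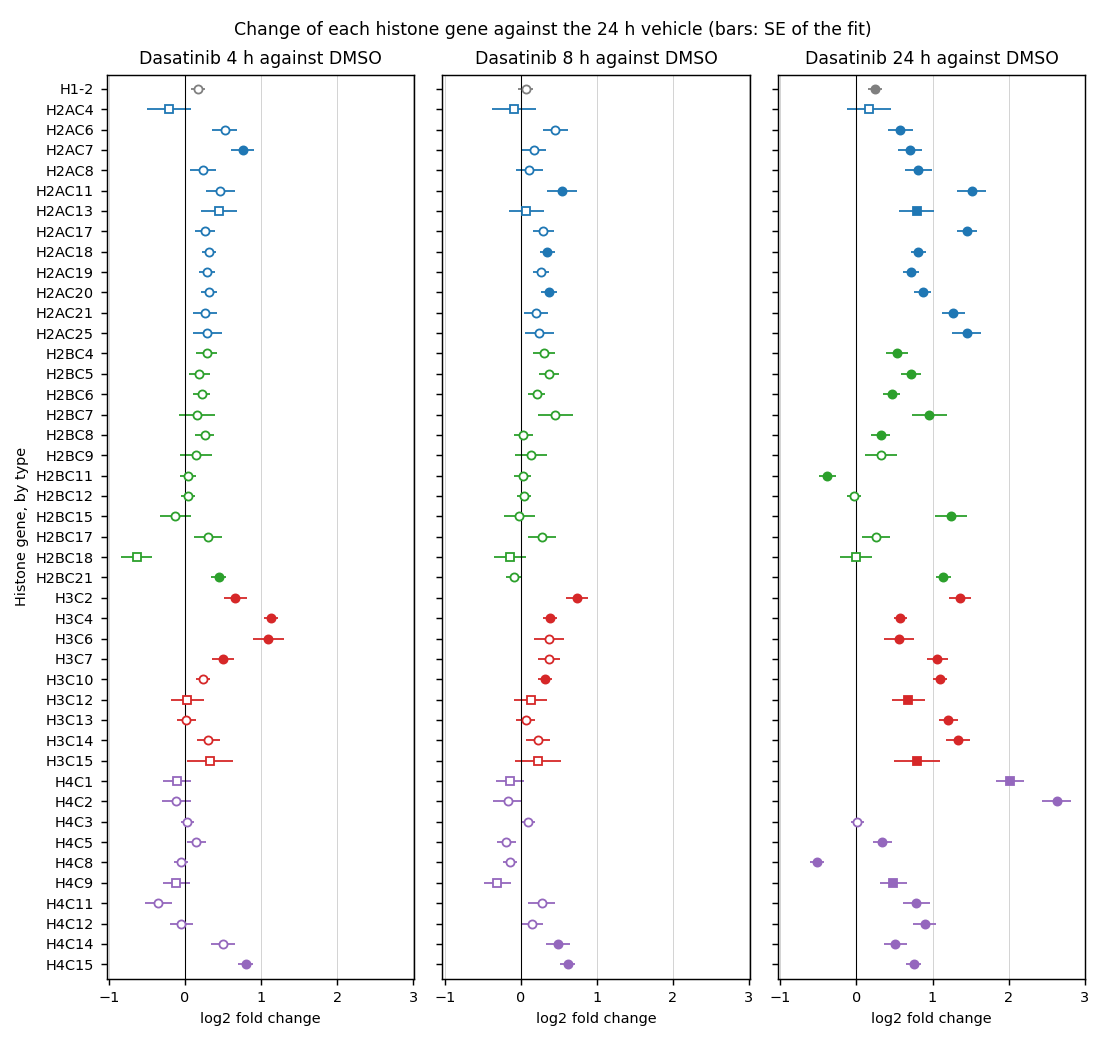
Log2 fold change (horizontal axis) of each of the 44 histone genes at 4 h, 8 h and 24 h of dasatinib against DMSO, coloured by type, with bars for the SE. Filled symbols have an adjusted p under 0.05, circles were detected on all 12 arrays and squares were not; at 24 h 36 genes are filled to the right of 0 and 2 to the left.

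H2A pairs with H2B, and the dimer flanks the central H3 and H4 tetramer of the nucleosome. All 10 H2A genes that were detected on every array rose at 24 h, by 0.58 to 1.51, with a median of 0.84. H2AC11 lay at 8.07, 7.73 and 7.54 on the DMSO arrays, at 8.63, 7.81 and 8.29 at 4 h, at 8.47, 8.40 and 8.11 at 8 h and at 9.23, 9.24 and 9.43 at 24 h. The 24 h arrays were above all others, and the 8 h arrays were above the DMSO arrays. H2AC11 was thus higher by 0.54 at 8 h (SE 0.19, adjusted p = 0.049), a call lost in the authors' deposited values (adjusted p = 0.057), without the detection filter (adjusted p = 0.091) and without any of several single arrays, and by 1.51 at 24 h (SE 0.19, adjusted p = 3.5e-05, 2.86-fold). H2AC17 lay at 7.57, 7.52 and 7.34 with DMSO, at 7.67, 7.84 and 7.70 at 4 h, at 7.92, 7.87 and 7.53 at 8 h and at 8.89, 8.75 and 9.16 at 24 h. The early groups were within 0.30 of the vehicle mean and were not called, and the rise at 24 h was 1.46 (SE 0.13, adjusted p = 2.5e-06). H2AC25, from a small cluster on chromosome 1, lay at 9.57, 9.70 and 9.23 with DMSO, at 9.75, 9.75 and 9.87 at 4 h, at 9.69, 9.94 and 9.59 at 8 h and at 10.63, 10.79 and 11.43 at 24 h. It rose by 1.45 at 24 h (SE 0.19, adjusted p = 4.4e-05), and 1 of its 24 h arrays stood above the other 2.

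H2AC21 also rose at least 2-fold, by 1.27. H2AC20, H2AC8, H2AC7 and H2AC6 rose by 0.87, 0.81, 0.71 and 0.58. H2AC18 and H2AC19 are near-identical copies, and their probes gave close levels on every array. Their rises of 0.81 and 0.71 may be 1 measurement and are uncertain as separate genes. A second probe of H2AC18 rose by 0.70 at 24 h (adjusted p = 0.0024 over all passing probes). Of the genes not detected on all arrays, H2AC13 rose by 0.80 at 24 h and H2AC4 was not called (0.16, adjusted p = 0.66).

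H2B genes were less uniform. Of the 11 detected on every array 7 rose and 1 fell at 24 h, with a median of 0.46. H2BC15 lay at 6.06, 6.59 and 6.83 with DMSO, at 6.47, 6.34 and 6.29 at 4 h, at 6.13, 6.69 and 6.60 at 8 h and at 8.06, 7.64 and 7.52 at 24 h. The first 3 groups overlapped, and the rise at 24 h was 1.24 (SE 0.21, adjusted p = 2.8e-04, 2.37-fold). H2BC21, a gene on chromosome 1 known to make a polyadenylated transcript as well, lay at 8.58, 8.65 and 8.61 with DMSO. Its levels were 9.14, 9.09 and 8.94 at 4 h, 8.62, 8.58 and 8.37 at 8 h, and 9.71, 9.85 and 9.72 at 24 h. It was higher at 4 h (0.44, SE 0.10, adjusted p = 0.013), not called at 8 h (-0.09, adjusted p = 0.51) and higher again at 24 h (1.14, SE 0.10, adjusted p = 1.5e-06). The 4 h and 24 h arrays did not overlap with each other or with the rest. H2BC7 lay at 6.43, 5.79 and 5.77 with DMSO, at 6.12, 6.26 and 6.07 at 4 h, at 6.21, 6.92 and 6.23 at 8 h and at 6.87, 6.66 and 7.34 at 24 h. It rose by 0.96 at 24 h (SE 0.23, adjusted p = 0.0040), with 1 DMSO array and 1 array at 8 h well above their groups.

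The H2B gene that fell was H2BC11. It lay at 10.75, 10.87 and 10.94 with DMSO, at 10.84, 10.95 and 10.87 at 4 h, at 10.90, 10.87 and 10.85 at 8 h and at 10.52, 10.26 and 10.63 at 24 h. The 24 h arrays were below all others, and the change was -0.38 (SE 0.11, adjusted p = 0.0093). H2BC5, H2BC4, H2BC6 and H2BC8 rose by 0.72, 0.54, 0.46 and 0.32 at 24 h. A second probe of H2BC5 rose by 0.79 (adjusted p = 3.1e-04 over all passing probes). H2BC9 (0.33, adjusted p = 0.21) and H2BC17 (0.26, adjusted p = 0.26) were not called, nor was H2BC18 (-0.01, adjusted p = 0.98), which was detected on 8 arrays and on none at 4 h. H2BC12 was not called either (-0.04, adjusted p = 0.77). Its raw signals of 20999 to 24322 lay close to the highest signal of any probe, which was 25501 to 31796 per array. Its range for a rise may therefore have been limited. A dimmer second probe of H2BC12 fell at 24 h by 0.27 (adjusted p = 0.046 over all passing probes).

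H3 genes had the highest median change of any type at 24 h with this background correction. All 7 that were detected on every array rose at 24 h, by 0.56 to 1.36, with a median of 1.10. H3C2 lay at 5.94, 5.94 and 6.06 with DMSO, at 6.52, 6.82 and 6.59 at 4 h, at 6.98, 6.79 and 6.38 at 8 h and at 7.20, 7.46 and 7.36 at 24 h. Each dasatinib group was above the vehicle without overlap, by 0.66 (adjusted p = 0.011), 0.73 (adjusted p = 0.0024) and 1.36 (adjusted p = 8.2e-06), each with an SE of 0.15. H3C14 lay at 5.86, 6.12 and 6.21 with DMSO, at 6.30, 6.28 and 6.52 at 4 h, at 6.13, 6.43 and 6.30 at 8 h and at 7.10, 7.70 and 7.40 at 24 h. It rose by 1.34 at 24 h (SE 0.16, adjusted p = 1.6e-05). H3C13 lay at 7.20, 6.85 and 6.98 with DMSO, at 7.02, 6.99 and 7.08 at 4 h, at 7.09, 7.02 and 7.13 at 8 h and at 8.10, 8.06 and 8.48 at 24 h. The first 3 groups overlapped, and the rise at 24 h was 1.20 (SE 0.13, adjusted p = 6.4e-06). A dimmer second probe of H3C13 gave 0.36 at 24 h and was not called (adjusted p = 0.24 over all passing probes). H3C13, H3C14 and H3C15 are close copies on chromosome 1 and may share signal. H3C10 and H3C7 rose by 1.10 and 1.07 at 24 h. H3C12 and H3C15 were undetected on all DMSO arrays and detected on all 24 h arrays, where they were at least 1.39-fold and 1.40-fold higher. Both passed the detection filter through the 24 h group alone, which fixed the direction. Such a bound sets each undetected value at the lowest detected signal of its array or its own value, whichever was higher.

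H4 genes held both the largest rise and the larger of the falls. H4C2 lay at 6.12, 6.33 and 5.87 on the DMSO arrays, at 6.15, 6.24 and 5.57 at 4 h, at 6.09, 6.07 and 5.65 at 8 h and at 8.55, 8.83 and 8.85 at 24 h. The early groups overlapped with the vehicle, and all 24 h arrays were far above. The change at 24 h was 2.63 (SE 0.19, adjusted p = 3.4e-07), or 6.21-fold, the largest among the 44 genes with this background correction. It was 1.54 without the correction, 1.92 with another background model and 0.98 in the authors' deposited values, where H2AC25 changed more (1.24), and it was called in each. H4C1, its neighbour in the cluster, was undetected on all DMSO, 4 h and 8 h arrays, where its values were 4.51 to 5.13. At 24 h it was detected on all arrays, at 6.73, 6.97 and 7.04. H4C1 passed the detection filter through the 24 h group alone and so had to differ. With this background correction it was at least 3.20-fold higher than with DMSO. The fitted change of 2.02 was 0.76 without the correction, 1.13 with another background model and 0.37 in the authors' deposited values. H4C12 lay at 7.61, 7.72 and 7.95 with DMSO, at 7.69, 7.55 and 7.89 at 4 h, at 7.92, 7.78 and 8.01 at 8 h and at 8.67, 8.37 and 8.92 at 24 h, a rise of 0.90 (SE 0.15, adjusted p = 2.9e-04).

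H4C8 fell. It lay at 9.91, 9.88 and 9.91 with DMSO, at 9.84, 9.89 and 9.82 at 4 h, at 9.92, 9.62 and 9.75 at 8 h and at 9.43, 9.32 and 9.41 at 24 h. The 24 h arrays were below all others, and the change was -0.51 (SE 0.09, adjusted p = 5.4e-04). H4C11, H4C15, H4C14 and H4C5 rose by 0.79, 0.75, 0.51 and 0.34 at 24 h. H4C14 and H4C15 are close copies, and H4C15 overlaps other histone genes in RefSeq, so they are uncertain as separate measurements. H4C9, which overlaps H2BC12 in RefSeq and was detected on 4 arrays, was at 0.48 at 24 h. It passed through the 24 h group alone, and its 24 h and DMSO arrays overlapped. H4C3 was not called (0.01, adjusted p = 0.94). Its raw signals of 22961 to 30286 lay near the top of each array, as for H2BC12.

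**Figure D2:**
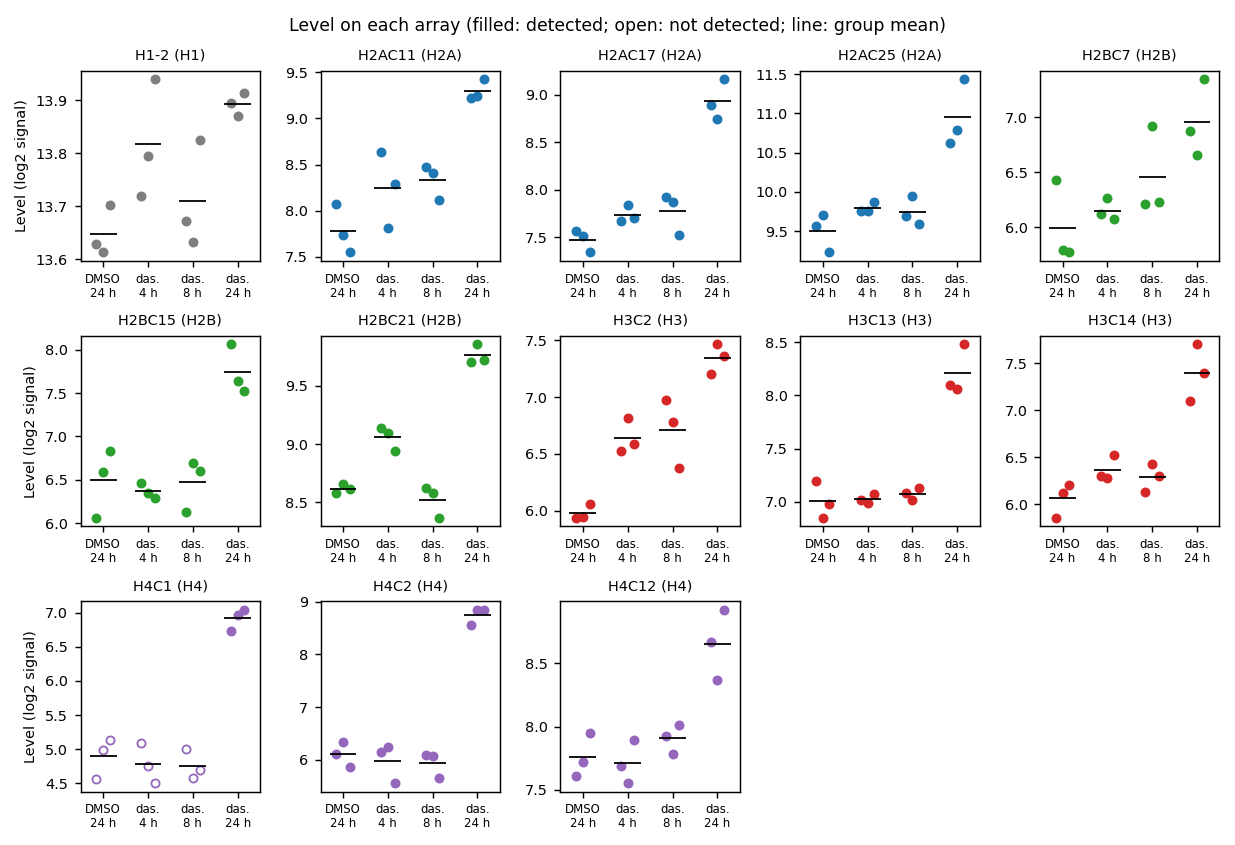
Normalized log2 level (vertical axis) on each array for H1-2 and the 3 genes of each other type with the largest change at 24 h, in the 4 groups. Filled points were detected, open points were not, and lines are group means; H4C2 sits at 5.57 to 6.33 in the first 3 groups and at 8.55 to 8.85 at 24 h.

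Promoters are shown for the H4 gene that rose most, the one that fell and an H3 gene higher in all 3 comparisons. The 150 bases before each start are given from RefSeq (GRCh38.p14), 5′ to 3′ on the gene's strand, which is minus for all 3. H4C2 lies at chr6:26027284-26027433, H4C8 at chr6:26285535-26285684 and H3C2 at chr6:26032100-26032249. Capitals mark matches to GGTCCG (the core of the H4 element bound by HINFP), to TATAAA and to CCAAT, on either strand.
H4C2: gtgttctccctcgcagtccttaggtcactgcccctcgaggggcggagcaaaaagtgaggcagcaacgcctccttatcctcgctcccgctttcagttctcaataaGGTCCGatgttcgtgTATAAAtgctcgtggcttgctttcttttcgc
H4C8: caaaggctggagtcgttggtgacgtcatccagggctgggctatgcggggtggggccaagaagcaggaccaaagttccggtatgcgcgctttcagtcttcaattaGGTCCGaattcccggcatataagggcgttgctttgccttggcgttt
H3C2: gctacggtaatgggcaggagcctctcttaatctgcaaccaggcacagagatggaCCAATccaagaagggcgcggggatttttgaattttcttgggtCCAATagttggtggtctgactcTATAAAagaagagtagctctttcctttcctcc
Both H4 promoters hold GGTCCG at the same distance from the start, and H4C2 alone of the pair also holds an exact TATAAA. H4C8 has tataag near the same place, which differs in its last letter and so is not marked. The H4 gene that rose most and the one that fell thus shared the H4 core in this window. A link between these letters and the changes was not tested.

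The only linker histone gene that passed was H1-2. It lay at 13.63, 13.61 and 13.70 with DMSO, at 13.72, 13.80 and 13.94 at 4 h, at 13.67, 13.63 and 13.83 at 8 h and at 13.89, 13.87 and 13.91 at 24 h. The change at 24 h was 0.25 (SE 0.09, adjusted p = 0.042), and leaving out any 1 DMSO array took it over the threshold. H1-1, H1-3, H1-4, H1-5 and H1-6 did not pass.

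Fewer histone genes differed from the vehicle at 4 h. Of the 37 detected on all arrays 7 were higher and 0 lower with limma, beside 5.48% higher and 6.51% lower among all such genes. At an unadjusted p under 0.05 the counts were 14 and 0. A difference of at least 2-fold was called for 2 genes, against 0.559% of all. H2BC18, undetected on all 4 h arrays, was at least 1.24-fold lower there without overlap, as were 14.5% of all genes that passed, but was not called (adjusted p = 0.068). The 7 genes are named here after their values were seen, and 4 of them are H3 genes. H3C4 lay at 8.55, 8.55 and 8.36 with DMSO, at 9.58, 9.62 and 9.65 at 4 h, at 8.93, 8.86 and 8.82 at 8 h and at 9.11, 9.08 and 9.01 at 24 h. It was highest at 4 h, by 1.13 (SE 0.09, adjusted p = 7.4e-06), and all dasatinib arrays were above the DMSO arrays. H3C6 lay at 6.88, 6.78 and 6.89 with DMSO, at 7.72, 7.98 and 8.13 at 4 h, at 7.02, 7.72 and 6.93 at 8 h and at 7.09, 7.62 and 7.52 at 24 h. It was higher at 4 h by 1.09 (SE 0.20, adjusted p = 0.0038), and its 8 h arrays were spread. H2AC7, which shares its start with H3C4 in RefSeq and overlaps it, lay at 5.27, 5.64 and 5.66 with DMSO, at 6.27, 6.09 and 6.47 at 4 h, at 5.84, 5.85 and 5.39 at 8 h and at 6.29, 6.28 and 6.11 at 24 h. Its change at 4 h was 0.76 (SE 0.16, adjusted p = 0.0075), and was 0.12 and not called in the authors' deposited values (adjusted p = 0.057). H2AC7 and H3C4 are therefore uncertain as separate measurements. H4C15 was higher by 0.79, H3C2 by 0.66, H3C7 by 0.50 (adjusted p = 0.038) and H2BC21 by 0.44 at 4 h. The call of H3C7 was lost without any 1 DMSO array and without the detection filter (adjusted p = 0.064), and that of H3C2 was lost in the authors' deposited values (0.14, adjusted p = 0.077). The changes of H3C4 and H3C6 were 0.75 and 0.39 there, and both were called.

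At 8 h, 8 of the 37 genes were higher and 0 lower with limma, beside 17.6% higher and 15.8% lower among all genes detected on all arrays. At an unadjusted p under 0.05 the counts were 13 and 0. The share of histone genes called higher, 21.6%, was thus near that of all genes. The 8 were H3C2 (0.73), H4C15 (0.62), H2AC11 (0.54), H4C14 (0.49), H3C4 (0.38), H2AC20 (0.37), H2AC18 (0.35) and H3C10 (0.31), named after their values were seen. The call of H4C14 was lost without the detection filter (adjusted p = 0.053), and that of H2AC18 with the mean of its probes (0.21, adjusted p = 0.17). The count fell to 4 without DMSO array B or without 8 h array A, and to 5 without DMSO array C or 8 h array B. The median change of the 37 genes was 0.26 at 4 h and 0.24 at 8 h, against 0.01 and 0.02 for all such genes. Over the 44 genes the medians of 0.25 and 0.20 became 0.13 and 0.09 without background correction and 0.07 and 0.05 in the authors' deposited values. The 3 comparisons with DMSO share its arrays and are not independent.

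Differences between the dasatinib groups do not use the DMSO means, but their SEs and p-values use a spread pooled over all 12 arrays. From 4 h to 8 h, 4 of the 37 genes were lower and 1 was higher, beside 5.42% and 6.18% of all such genes. The lower ones were H3C4 (-0.75), H3C6 (-0.72), H2AC7 (-0.59) and H2BC21 (-0.54), all among the genes that were higher at 4 h. The 4 h arrays enter both comparisons, which are therefore not independent. The higher one was H4C11 (0.63, adjusted p = 0.039), a call that was lost without DMSO array A and without several of the dasatinib arrays. From 8 h to 24 h, 20 were higher and 2 lower, beside 16.8% and 20.6% of all. H4C2 rose by 2.80 (SE 0.19, adjusted p = 1.1e-06) and H2BC15 by 1.26, and the 2 lower genes were H4C8 (-0.37) and H2BC11 (-0.40). From 4 h to 24 h, 20 were higher and 4 lower, beside 22.7% and 24.9% of all. The 4 lower genes were H3C4, H3C6, H4C8 and H2BC11. Over all 4 groups a moderated F test called 31 of the 37 genes, beside 60.0% of all. Among the genes called higher at 4 h, H3C4, H3C6, H2AC7 and H4C15 had their highest group mean at 4 h. The 24 h mean was only 0.05 lower for H2AC7 (adjusted p = 0.82) and 0.04 lower for H4C15 (adjusted p = 0.76). H4C2, H2AC25, H2BC15, H2AC17 and H3C13 were among the genes called against DMSO at 24 h and not earlier. Each was also called higher at 24 h than at 4 h and at 8 h, as were others such as H3C14 and H2AC21. These comparisons share the 24 h arrays and are not independent.

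**Figure D3:**
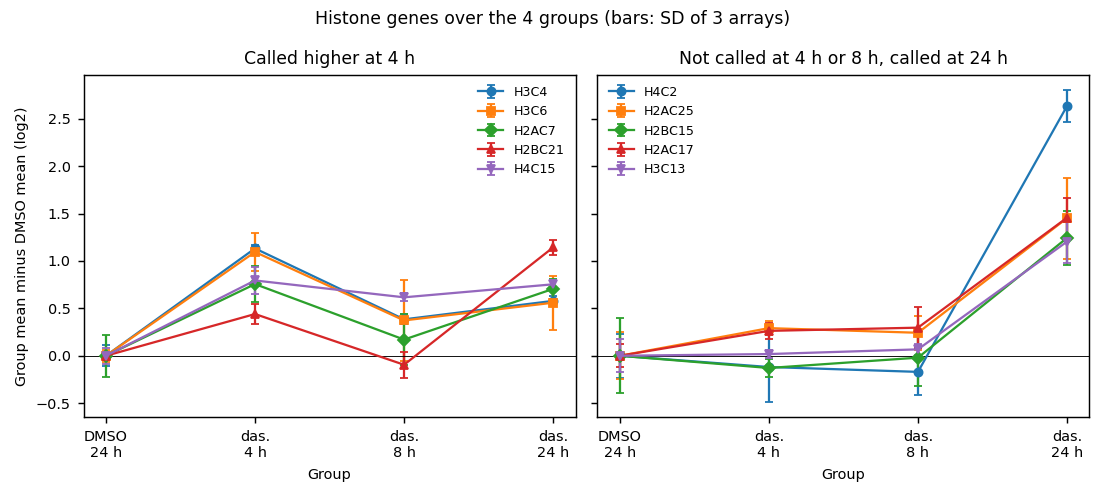
Group mean minus the DMSO mean (log2, vertical axis) in the 4 groups, with bars for the SD of 3 arrays, for 5 genes that were called higher at 4 h (left) and 5 that were called at 24 h alone (right). H3C4 is at 1.13 at 4 h and 0.58 at 24 h, and H4C2 moves from -0.17 at 8 h to 2.63 at 24 h; the genes were chosen after their values were seen.

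Many H2A and H2B genes stand head to head and share the stretch between their starts. RefSeq places 12 head-to-head pairs of histone genes with neighbouring starts, and both members were measured in 7. Both counts include the H3 gene H3C4 with H2BC7, over the same stretch as H2AC7 with H2BC7. H2BC21 and H2AC20 changed at 24 h by 1.14 and 0.87, and H2BC4 and H2AC6 by 0.54 and 0.58. H2AC7 and H2BC7 changed by 0.71 and 0.96, and H3C4, with the same start as H2AC7, by 0.58. H2BC8 and H2AC8 changed by 0.32 and 0.81. H2BC11 and H2AC11 moved in opposite directions, by -0.38 and 1.51. H2AC17 rose by 1.46, and its partner H2BC17 was at 0.26 and not called. At 4 h H2AC7 and H3C4 were higher by 0.76 and 1.13, and H2BC7 across the same stretch was at 0.15 and not called. Head-to-head partners were therefore alike in some pairs and unlike in others, and the difference between partners was not tested.

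The stretches of 4 pairs are given from RefSeq (GRCh38.p14, plus strand), 2 with partners that both rose and 2 with partners that differed. H2BC21 and H2AC20 flank chr1:149886683-149886917, H2AC7 and H2BC7 flank chr6:26199294-26199515, H2BC11 and H2AC11 flank chr6:27132796-27133042 and H2AC17 and H2BC17 flank chr6:27893186-27893424. The gene named first reads leftward from the left end and the other reads rightward from the right end. Capitals mark the octamer ATTTGCAT, which POU2F1 binds, and the 3 motifs named above, each on either strand, and where marks touch they run together.
H2BC21 and H2AC20: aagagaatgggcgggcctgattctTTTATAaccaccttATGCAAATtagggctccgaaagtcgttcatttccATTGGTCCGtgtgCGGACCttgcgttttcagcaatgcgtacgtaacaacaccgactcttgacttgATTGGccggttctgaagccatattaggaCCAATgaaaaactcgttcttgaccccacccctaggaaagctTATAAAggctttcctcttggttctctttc
H2AC7 and H2BC7: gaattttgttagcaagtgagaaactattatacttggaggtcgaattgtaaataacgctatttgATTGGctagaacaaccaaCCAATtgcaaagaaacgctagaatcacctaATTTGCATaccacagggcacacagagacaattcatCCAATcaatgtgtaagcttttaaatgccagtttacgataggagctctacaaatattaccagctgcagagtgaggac
H2BC11 and H2AC11: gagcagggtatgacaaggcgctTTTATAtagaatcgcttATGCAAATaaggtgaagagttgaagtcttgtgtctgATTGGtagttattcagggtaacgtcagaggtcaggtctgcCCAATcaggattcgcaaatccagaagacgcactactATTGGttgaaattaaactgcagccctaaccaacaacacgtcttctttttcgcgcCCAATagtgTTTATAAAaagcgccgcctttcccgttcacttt
H2AC17 and H2BC17: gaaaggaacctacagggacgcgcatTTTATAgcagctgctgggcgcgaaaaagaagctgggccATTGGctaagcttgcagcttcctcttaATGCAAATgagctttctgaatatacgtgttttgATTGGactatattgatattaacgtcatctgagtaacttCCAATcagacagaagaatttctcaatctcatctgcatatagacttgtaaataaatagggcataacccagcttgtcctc
Each stretch holds 1 octamer match and 3 or 4 CCAAT matches. TATAAA lies near both ends in H2BC11 and H2AC11, which changed in opposite directions, and also in H2BC21 and H2AC20, which both rose, while H2AC17 and H2BC17 have it near the H2AC17 end alone. The stretch between H2AC7 and H2BC7 has no TATAAA.

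Motifs were counted on both strands of the 250 bases before the start for 41 of the 44 genes, as H3C12, H4C1 and H4C3 were not in the promoter table. GGTCCG was present in 8 of 8 H4 genes and 1 of 12 H2A, 1 of 12 H2B and 1 of 8 H3 genes, beside 9.43% of 35116 promoters. ATTTGCAT was present in 10 of 12 H2B and 8 of 12 H2A genes, 1 of 8 H3 and 0 of 8 H4 genes, beside 1.63% of promoters. CCAAT was present in all H2A, H2B and H3 genes and 1 of 8 H4 genes, beside 32% of promoters. TATAAA was present in 29 of 41 genes, beside 10.7% of promoters, and in 3 of 8 H4 genes. The H2A and H2B counts share stretches, since head-to-head partners read the same bases. A match is a description of the letters and not of binding.

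Of the 13 histone genes on chromosome 1, 10 were detected on every array and all 10 rose at 24 h, with a median change of 1.01. Of the 55 on chromosome 6, 27 were detected on every array and 21 rose, with a median of 0.58. Of all genes detected on every array 27.0% were called higher. Over the genes that passed, 11 of 12 on chromosome 1 and 25 of 32 on chromosome 6 rose, with medians of 0.84 and 0.63, beside 26.9% of all. The chromosomes differ in their mix of types, with most H2B genes on chromosome 6. Several of the chromosome 1 genes are close copies that may share signal. H4C1, H4C2 and H3C2 follow each other among the histone genes of chromosome 6 on the array. H4C2 and H3C2 had the largest change of their types, and H4C1 passed through the 24 h group alone. H4C8 and H2BC11, the genes that fell, also follow each other in the order of the histone genes on the array. They do not lie side by side, since the stretch before H4C8 is at chr6:26285535-26285684 and that beside H2BC11 at chr6:27132796-27133042. H2AC11, which does lie next to H2BC11, rose by 1.51. No test was made of position.

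**Figure D4:**
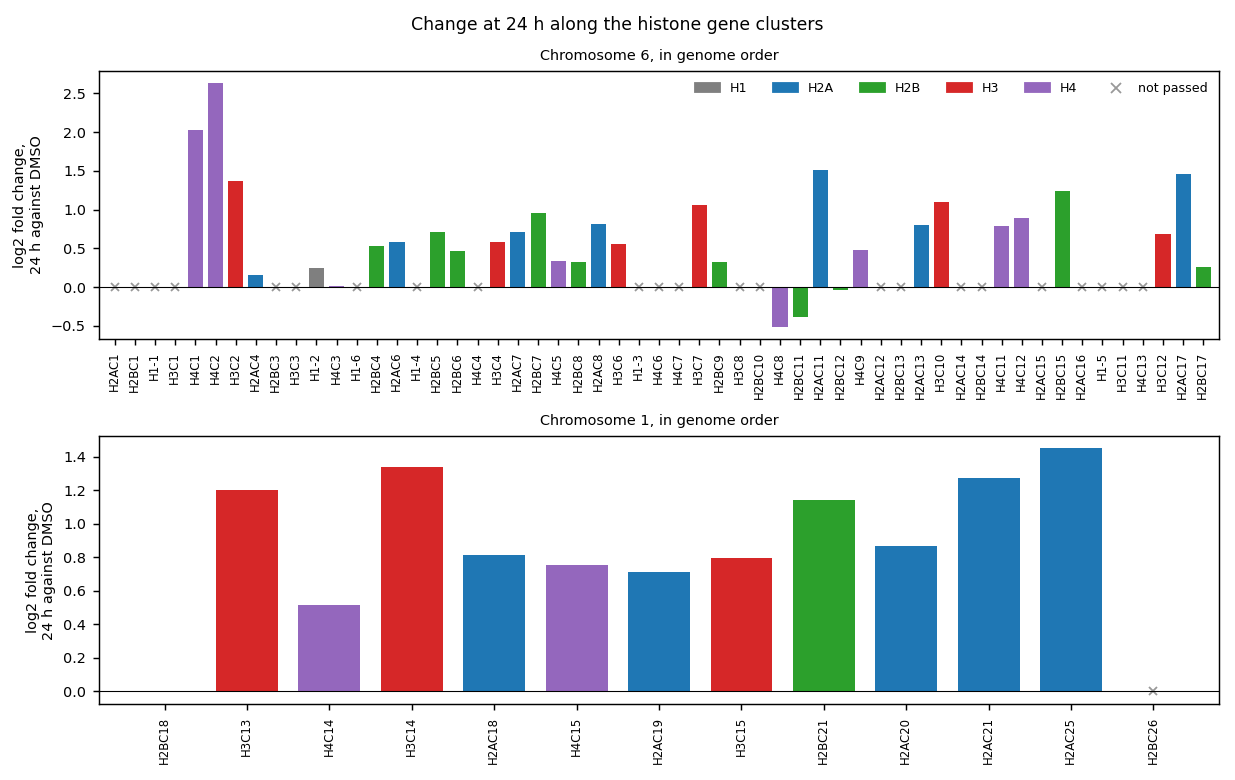
Log2 fold change at 24 h against DMSO (vertical axis) for each histone gene on the array, in genome order on chromosome 6 (top) and chromosome 1 (bottom), coloured by type. Crosses mark genes that did not pass, and H2BC18 has a bar too short to see (-0.01); H4C1 and H4C2 stand highest on chromosome 6, and H4C8 and H2BC11 lie below 0.

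Histone genes known to make polyadenylated transcripts as well were set apart by name. Of 7, 6 passed, all on every array, and 5 of these rose at 24 h, with a median of 0.56, beside the 27.0% called higher among all genes on every array. Among all 37 histone genes on every array, which include these 6, 31 rose with a median of 0.75, so the share is not particular to this list. The 5 were H2BC21, H2BC5, H2AC6, H2BC4 and H1-2, and H2BC12 was not called. The call of H1-2 was lost without any 1 DMSO array. H4C16 did not pass.

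The replication-independent variants, which are made outside S phase from ordinary polyadenylated mRNAs, were mostly not called. Of 11 measured, 2 rose and 2 fell at 24 h, with a median of -0.22, beside 26.9% of all genes that passed higher and 27.1% lower. H2AJ, an H2A variant, rose by 1.04 (adjusted p = 2.6e-06), and the linker variant H1-10 rose by 0.59. MACROH2A1, which carries a macro domain, fell by 0.34, and H2AZ1, the variant found at promoters, fell by 0.28. H2AJ and H1-10 were also higher at 4 h, by 0.49 and 0.66. H2AX, made both in and outside S phase, was at -0.22 at 24 h and was not called (adjusted p = 0.15).

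Among 21 measured genes for histone transcription, mRNA processing and decay, 3 rose and 6 fell at 24 h, with a median of -0.04. Of all genes that passed, 26.9% were higher and 27.1% lower at 24 h. XRN1, a 5′ to 3′ exonuclease, rose by 1.34, and LSM11, a subunit of the U7 particle that cuts histone pre-mRNA, rose by 0.81. Its partner in that particle, LSM10, fell by 1.00, and FIP1L1, a polyadenylation factor, fell by 0.90. SLBP and NPAT were not called at 24 h (-0.19, adjusted p = 0.14, and 0.17, adjusted p = 0.35). At 8 h 2 rose and 6 fell, among them ERI1, an exonuclease of histone mRNA ends (-0.60), and NPAT (-0.58, adjusted p = 0.0093), and SLBP was lower by 0.32. The shares of all genes that passed were 16.6% higher and 15.4% lower at 8 h. At 4 h 1 rose, HINFP, which binds the H4 element (0.45, adjusted p = 0.041), and ERI1 fell by 0.39, beside 5.29% and 6.65% of all genes that passed. HINFP was also higher at 24 h, by 0.68. SLBP, and HINFP at 24 h, were named outside the rule after their values were seen.

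Of 20 measured histone chaperones and import factors 3 rose and 5 fell at 24 h, with a median of 0.03, beside 26.9% of all genes that passed higher and 27.1% lower. IPO4, an importin of H3 and H4, fell by 1.79 (adjusted p = 4.8e-08), and CHAF1A, the large subunit of the replication-coupled assembly factor, fell by 0.70. ASF1B and ASF1A, which hand over H3 and H4, rose by 0.95 and 0.80. Of 20 measured S phase genes, 2 rose and 5 fell at 24 h, with a median of -0.07, beside 26.9% of all genes that passed higher and 27.1% lower. TK1 (thymidine kinase) rose by 0.87 and MCM5, a subunit of the replicative helicase, by 0.37. RRM2, of ribonucleotide reductase, fell by 0.70, and CDC6, a licensing factor, fell by 0.65. At 4 h 0 of the 20 S phase genes were called with limma (3 higher and 0 lower at an unadjusted p under 0.05), at 8 h 2 rose and 3 fell, and PCNA was not called at any time. The shares of all genes that passed were 5.29% higher and 6.65% lower at 4 h, and 16.6% and 15.4% at 8 h. The difference between the S phase list and the histone genes was not tested.

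**Figure D5:**
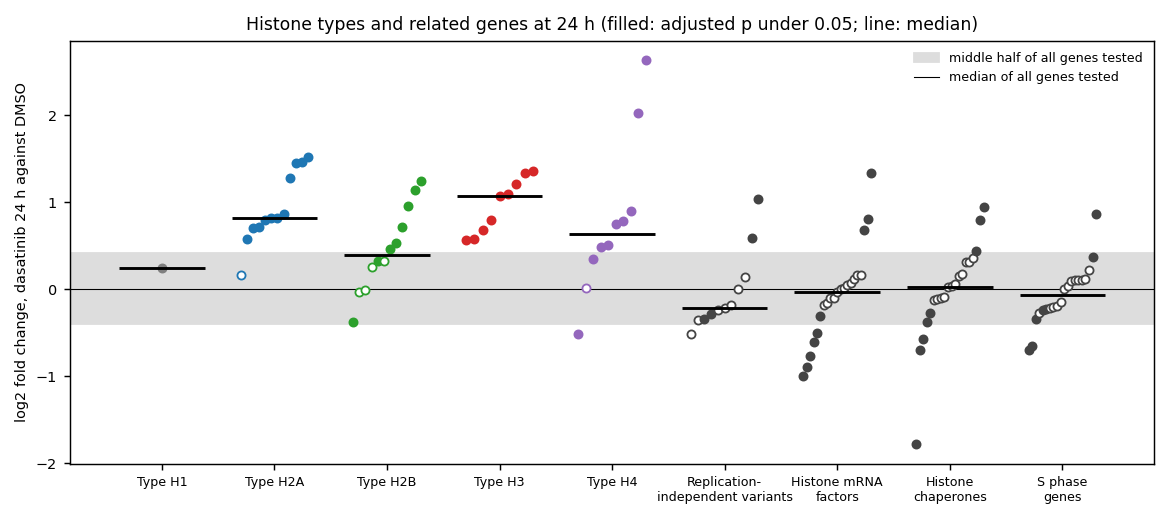
Log2 fold change at 24 h against DMSO (vertical axis) of each measured gene, by histone type and for 4 related lists. Filled points have an adjusted p under 0.05, thick lines are medians, and the grey band runs from the 25th to the 75th percentile of all genes tested (-0.40 to 0.42); the medians of H2A, H3 and H4 lie above the band and those of the 4 lists lie within it.

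The 25 histone genes that did not pass were 5 H1, 5 H2A, 6 H2B, 4 H3 and 5 H4 genes, and 18 of them were undetected on every array. A probe that names H3C6 and H3C11 together was undetected on all 12 arrays.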

How the data were processed

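Expression was measured on Illumina BeadChips in 12 samples of K562 cells, 3 in each of 4 groups. Per the labels, the RNA was total RNA from RNeasy columns, and a TotalPrep kit turned it into biotin-labelled cRNA. The deposited probe signals are intensity values with no background subtraction or normalization. A detection p-value stands beside each signal, per the file headers. The authors also deposited a value table on a log2 scale, whose columns share a median of 7.84 and whose sorted values differ by at most 0.00061. Its method, centring and software are not given in the sources used here, and it served as an alternative. Signal columns are lettered A to C in each group. By rank, each matched 1 column of the authors' table exactly (correlation 1), always of the same group, with A, B and C as replicates 1, 2 and 3. BMS in the column names was read as dasatinib, the drug of the labels. The number of columns of per-sample values left unused was 0.

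Signals were corrected, offset by 16 and quantile-normalized with neqc (limma 3.58.1, R 4.3.3), with moments of the negative controls inferred from the detection p-values. Background correction widens and the offset narrows the changes of dim genes. Of 47314 probes, 30108 named 1 gene, 8 named several and 17198 none, by the platform annotation. The passing probe with the highest mean represented a gene. The linear model, with a mean for each group, covered 12 arrays and 10208 genes, with 6 comparisons, two-sided moderated tests and Benjamini-Hochberg adjustment over all genes. The fit was tested on simulated data. All passing probes, 17625, were fitted apart to compare probes of a gene. The number of arrays limits the precision. Alternatives were the background correction, the authors' table, the detection filter, the mean of a gene's probes, the letters as a block and leaving out each array.

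The letters do not pair the samples in the labels, and of 18 same-letter pairs of arrays 4 had correlated deviations over 0.1. Promoters and gene order came from RefSeq tables (GRCh38.p14), in which all 69 symbols were found and 41 of 44 promoters. The histone genes, the lists and the tests were chosen with earlier results of these data known. Array-by-array values were given for the 3 genes per type with the largest 24 h change, and up to 4 called genes with the largest change were named per list and comparison. Genes named otherwise, such as those called at 4 h or 8 h and those that fell, were chosen after their values were seen.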

Additional observations from a re-analysis of the deposited data

Results flagged for a closer look

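For 9 histone genes the change from DMSO had opposite signs at 2 times and the difference between those times was itself called by limma. How many of all genes meet this rule was not counted, so the 9 have no background to be read against. Of all genes that passed, 11.3% were called from 4 h to 8 h, 35.7% from 8 h to 24 h and 45.7% from 4 h to 24 h. The changes from DMSO share the DMSO arrays, while the differences between times do not use the DMSO means but take their p-values from a spread pooled over all 12 arrays. From 4 h to 8 h, H2BC21 differed by -0.54 (0.44 above DMSO, then -0.09; adjusted p = 0.0056) and H4C11 by 0.63 (-0.35, then 0.28; adjusted p = 0.039).

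From 8 h to 24 h, H4C2 differed by 2.80 (-0.17, then 2.63; adjusted p = 1.1e-06), H2BC15 by 1.26 and H2BC21 by 1.24. H4C5 differed by 0.53, and H2BC11 by -0.40 (0.02, then -0.38; adjusted p = 0.011). H4C1, undetected on all 8 h arrays, had a fitted difference of 2.16 and was at least 3.19-fold higher at 24 h. H4C9, also undetected on all 8 h arrays, had a fitted difference of 0.79 and was at least 1.37-fold higher.

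From 4 h to 24 h, H4C2 differed by 2.75, H2BC15 by 1.37, H4C11 by 1.14, H4C12 by 0.94 and H2BC11 by -0.42. H4C1 and H4C9, undetected on all 4 h arrays, had fitted differences of 2.13 and 0.60 and were at least 3.07-fold and 1.31-fold higher. Except for H2BC21 at 4 h, the change from DMSO at the earlier time was itself not called in these genes, so its sign is not settled. H4C1 and H4C9 passed the detection filter through the 24 h group alone.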

How the results depend on the processing

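Single genes were followed under the alternatives for the 7 changes called at 4 h, the 8 at 8 h and 15 of those at 24 h. The 15 were H1-2, the 3 genes of each other type with the largest change, and the 2 that fell. None of the changes followed turned its direction under any alternative. Other named genes called at 24 h, and changes called between times, were not followed one by one. With all arrays kept, the counts of histone genes called stayed within 1.5 times the reported ones under the other settings, except that at 4 h 12 were higher without background correction. From 4 h to 8 h the higher count of 1 became 0 without background correction, in the authors' table and without the detection filter, where the lower count of 4 became 2. With the letter as a replicate block the counts were 7 higher at 4 h, 10 at 8 h and 36 at 24 h, with 2 lower at 24 h, so the block moved no count by over 1.5 times. Of 12 arrays 7 were most like an array of their own letter in another group.

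Leaving out each array in turn gave 6 to 8 higher and 0 to 1 lower at 4 h, the 1 being without 8 h array B. It gave 4 to 9 higher and 0 lower at 8 h, with 4 without DMSO array B or 8 h array A and 5 without DMSO array C or 8 h array B, and 28 to 36 higher and 2 lower at 24 h. Between times it gave 0 to 1 higher and 2 to 4 lower from 4 h to 8 h, with 2 lower without 4 h array C or 8 h array C, and 0 higher without DMSO array A, 4 h array A or B, 8 h array B or C, or 24 h array A or B. From 8 h to 24 h it gave 21 to 24 higher and 2 lower, and from 4 h to 24 h 20 to 25 higher and 3 to 4 lower. The F test called 30 to 36.

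The median change of the histone genes at 24 h, 0.74, was 0.44 without background correction, 0.53 with another background model, 0.33 in the authors' table and 0.39 without the detection filter, which admits undetected genes. Under the same settings in turn the median at 4 h, 0.25, was 0.13, 0.17, 0.07 and 0.12, and at 8 h, 0.20, it was 0.09, 0.12, 0.05 and 0.07. Over the 15 genes followed at 24 h, 1 of 104 values lost its call under the other settings, for H1-2. When an array was left out 8 of 180 did, each also for H1-2. Over the 7 genes called at 4 h the calls lost were 3 of 49 and 9 of 84, and over the 8 at 8 h 4 of 56 and 22 of 96. The 15 were mostly chosen for large changes. Among all histone genes, leaving out an array took the number called higher at 24 h from 36 to as few as 28, so other genes lost their call. Undetected values limit what could be seen for H4C1, and signals near the top of each array may do so for H4C3 and H2BC12.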
